A study of Homo sapiens with 14 samples.

Results

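The mitochondrial genome positions described here are all positions of chrM, on either strand, at which at least 1 cDNA was counted in any of 14 crosslinking libraries of TRMT2A, the enzyme that places 5-methyluridine (m5U) in cytosolic tRNAs. They were chosen by chromosome alone. There were 244 such positions among 63023 counted positions in all, and they held 455 of 377345 counts. FICC-Seq libraries came from cells given 5-fluorouracil (5FU) at 100 µM for 24 h, which traps the endogenous enzyme on its target uridine, and an antibody to TRMT2A was used for the pull-down (HEK293, n = 3; HAP1, n = 3). The condition label of these libraries reads Untreated, and the 5FU dose comes from their protocol text. The iCLIP libraries used UV light on cells without 5FU and the same antibody (HEK293, n = 3; HAP1, n = 3), and so record contact with RNA rather than methyl transfer. The miCLIP libraries came from HEK293 cells transfected with a FLAG-tagged TRMT2A in which a catalytic glutamate was changed to alanine (n = 2), so the protein was overexpressed. HEK293 is a line from human embryonic kidney and HAP1 is a near-haploid human line of leukaemic origin. The paper calls the replicates biological, and the labels used here do not say whether they were separate cultures, so p-values are read as measuring only the spread between these libraries.

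The human mitochondrial genome is a small circle that is transcribed on both strands into long precursors, from which tRNAs, both rRNAs and the mRNAs of respiratory chain subunits are cut out. Most of the genes lie on the strand read here as plus, and MT-ND6 and a group of tRNAs lie on minus. Mitochondrial tRNAs are heavily modified, and where they carry m5U at position 54 of the T-loop it is placed inside the organelle by a paralogue, TRMT2B. TRMT2A itself is known as an enzyme of nuclear and cytosolic tRNAs.

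The sequences around the leading positions show where in the tRNAs the counts fell. Each run below has 30 bases, 5′ to 3′ on the strand of the count, with the counted base in capitals. That base is the nucleotide just before the start of the cDNA. The set holds the 3 highest positions of each method, ties included, and the T-loop position of MT-TL1. The bases are those of the GRCh37 mitochondrial sequence at the coordinates in the files.

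MT-TL1, chrM:3228-3257, plus: ttgttaagatgGcagagcccggtaatcgca
MT-TL1, chrM:3255-3284, plus: gcataaaacttAaaactttacagtcagagg
MT-TL1, chrM:3265-3294, plus: taaaactttacAgtcagaggttcaattcct
MT-TL1 T-loop, chrM:3274-3303, plus: acagtcagaggTtcaattcctcttcttaac
MT-TY, chrM:5842-5871, minus: cattggactgtAaatctaaagacaggggtt
MT-TF, chrM:605-634, plus: tacactgaaaaTgtttagacgggctcacat
MT-TP, chrM:15972-16001, minus: tcttagctttgGgtgctaatggtggagtta
MT-TG, chrM:10009-10038, plus: gtaccgttaacTtccaattaactagttttg
MT-ND4L opposite strand, chrM:10738-10767, minus: tttagcattggAgtaggtttaggttatgta

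The files name hg19, of which mitochondrial sequences of different length are in use, and the headers do not say which was mapped to. The paper gives an Ensembl version of hg19/GRCh37 as the mapping reference, without naming the mitochondrial sequence. With the older sequence the same coordinates would point to bases 1 nt nearer to the start of the circle, or 2 nt nearer before position 3107, where the sequence used here has a placeholder. The capital would then move to its 5′ neighbour on plus and to its 3′ neighbour on minus, and by 2 bases in MT-TF. Base numbers below are those of the annotated gene, counted from 1 at its 5′ end, and the reading in the older coordinates is added where it changes what the base is.

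Some iCLIP libraries of the 2 cell lines were not independent of each other. The labels give the same barcode to HEK293 and HAP1 iCLIP libraries of the same replicate number. Replicate 2 of HEK293 and replicate 2 of HAP1 shared 18 mitochondrial positions, which is 66.7% of the 27 in HEK293 and 41.9% of the 43 in HAP1. The replicate 3 libraries shared 12 positions, 28.6% of 42 and 30.8% of 39. All other pairs of libraries shared at most 9. Of the single-count positions on other chromosomes outside the listed tRNA regions, these pairs shared 24.2% and 27.8%, taken over the smaller library, against 1.14% to 14.7% in the other 89 pairs. The 14.7% was that of FICC-Seq HEK293 replicates 1 and 3, which also share a barcode label. The iCLIP replicate 1 libraries shared 5 mitochondrial positions and 5.33% of those on other chromosomes. Because of the sharing in iCLIP, its values are also given without 20 mitochondrial positions (42 counts). These were found in both iCLIP libraries of a replicate number and in no other library. This alternative was chosen after the data were seen.

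Mitochondrial RNA was a small fraction of every library and was highest in iCLIP. In iCLIP HEK293 the mitochondrial counts were 51, 34 and 63, and in iCLIP HAP1 they were 107, 56 and 55. In FICC-Seq HEK293 they were 4, 1 and 0, and in FICC-Seq HAP1 8, 3 and 15. The miCLIP libraries had 12 and 46. These counts stood against library totals of 7002 to 17432 in iCLIP, 15982 to 38957 in FICC-Seq, and 39024 and 104605 in miCLIP.

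As a percentage of all counts of a library, the mitochondrial share was 0.645% ± 0.264 (SD, n = 6) in iCLIP and 0.0161% ± 0.0144 (n = 6) in FICC-Seq. The groups did not overlap: iCLIP ran from 0.293% to 0.971% and FICC-Seq from 0 to 0.0385%. FICC-Seq minus iCLIP was -0.63 percentage points within cell lines (2-sided exact permutation test, p = 0.005, the smallest this design allows; Benjamini-Hochberg adjusted p = 0.075 over the 15 tests made on mitochondrial counts). The mean of FICC-Seq was 0.0250 times that of iCLIP. The library with 0 counts, FICC-Seq HEK293 replicate 3, allows a share of up to 0.0106% (3 counts of its total). Shares compare cDNAs within a library, so fewer mitochondrial cDNAs and more cDNAs from cytosolic tRNAs cannot be told apart from the share alone. Taken over the counts outside the listed tRNA clusters and their 100 nt flanks, the difference was -1.37 percentage points (exact permutation test, p = 0.005), with pooled shares of 0.0909% in FICC-Seq and 1.29% in iCLIP. Without the positions that iCLIP libraries of a replicate number alone share, it was -0.54 (exact permutation test, p = 0.005).

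**Figure D1:**
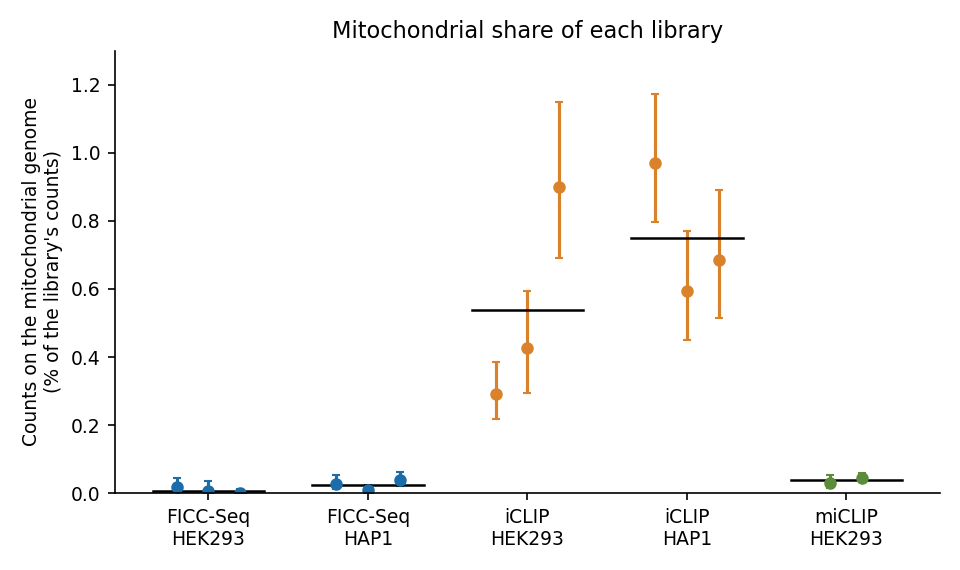
Percentage of each library's counts that lay on the mitochondrial genome (y axis) in the 5 experiments (x axis); points are libraries with exact 95% binomial intervals, which cover counting error only, and black lines are means. The 6 iCLIP libraries sit between 0.293% and 0.971%, above all FICC-Seq and miCLIP libraries.

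In HEK293 cells the miCLIP share was 0.0374% ± 0.00935 (n = 2), between FICC-Seq (0.00771% ± 0.00852, n = 3) and iCLIP (0.539% ± 0.319, n = 3), and no value of miCLIP overlapped either group. With 2 against 3 libraries the exact permutation test cannot go below 0.1. The differences were 0.03 percentage points above FICC-Seq (p = 0.1, adjusted p = 0.214) and -0.50 against iCLIP (p = 0.2, adjusted p = 0.333, both by the exact permutation test). Between cell lines, the share in HEK293 differed from that in HAP1 by -0.11 percentage points within methods (exact permutation test, p = 0.295, adjusted p = 0.443). That comparison depended on which iCLIP library was left out. Without iCLIP HAP1 replicate 1, the highest of its group at 0.971%, the difference was -0.059 (exact permutation test, p = 0.65). Without iCLIP HEK293 replicate 1 it was -0.052 (exact permutation test, p = 0.675). In the other direction, iCLIP HEK293 replicate 3, at 0.8997%, was the highest of its own group. Without it the difference was -0.20 (exact permutation test, p = 0.015), and without iCLIP HEK293 replicates 2 and 3 it was -0.24 (p = 0.025, same test). The libraries of HEK293 and HAP1 carry different run names, so cell line and run cannot be told apart.

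By annotation the chromosome holds 22 tRNA genes, 2 rRNA genes and 13 mRNA genes. Counts on the strand of a tRNA gene made up 211 of the 455, those of mRNA genes 111 and those of rRNA genes 33, while 95 lay opposite to a gene and 5 in the non-coding region. Per length the tRNAs stood far above the others. In iCLIP the pooled density was 97.5 counts per kb of tRNA gene, 9.55 per kb of rRNA gene and 9.04 per kb of mRNA gene. In miCLIP it was 29.2, 3.18 and 0.263 per kb, and in FICC-Seq 13.3, 0.398 and 0.439 per kb.

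The makeup of the mitochondrial counts differed between experiments. tRNAs took 28.0% of the pooled counts in iCLIP HAP1 (exact 95% interval 22.1 to 34.4, 61 of 218) and 58.1% in iCLIP HEK293 (49.7 to 66.2, 86 of 148). They took 75.9% in miCLIP (62.8 to 86.1, 44 of 58), 65.4% in FICC-Seq HAP1 (44.3 to 82.8, 17 of 26) and 3 of 5 counts in FICC-Seq HEK293. Per library, the iCLIP tRNA share was 60.8%, 61.8% and 53.97% in HEK293 and 20.6%, 32.1% and 38.2% in HAP1, without overlap between the lines. Without the positions shared within a replicate number it was 60%, 77.3% and 56.4% in HEK293 and 19.05%, 31.1% and 38.3% in HAP1. FICC-Seq HAP1 had 62.5%, 66.7% and 66.7%.

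Averaged over libraries, the tRNA share was higher in FICC-Seq than in iCLIP by 25.57 percentage points (exact permutation test, p = 0.03, adjusted p = 0.105), and that of mRNA differed by -17.51 points (p = 0.03, adjusted p = 0.105, same test). The FICC-Seq library with no mitochondrial counts was dropped from these shares, which left n = 5 against n = 6, and of those 5 the libraries FICC-Seq HEK293 replicates 1 and 2 and FICC-Seq HAP1 replicate 2 hold only 4, 1 and 3 mitochondrial counts. The tRNA difference fell short of an unadjusted p of 0.05 without the iCLIP positions shared within a replicate number (23.12 points, exact permutation test, p = 0.055). It also fell short with the replicate block (24.35 points, p = 0.125) and without FICC-Seq HEK293 replicate 2, a library with 1 mitochondrial count (13.07 points, p = 0.113), and the mRNA difference did so with the replicate block (-18.29 points, p = 0.0625), all by the exact permutation test. The tRNA result also rested on MT-TL1: with the counts of that gene left out, the difference was -16.67 points (exact permutation test, p = 0.25). FICC-Seq HEK293 replicate 2 then had no count left, as its only mitochondrial count was in MT-TL1. FICC-Seq HEK293 replicate 1 and HAP1 replicate 2 had 2 of 4 and 2 of 3 there. The other FICC-Seq tRNA counts, 2 in MT-TF, 3 in MT-TY and 1 in MT-TP, were all in HAP1 replicate 3. The sign of this value therefore cannot show how the other tRNAs differ. The rRNA share did not differ between FICC-Seq and iCLIP beyond the spread (difference -0.39 points, exact permutation test, p = 0.955, adjusted p = 0.955). The FICC-Seq value rested on 1 rRNA count, in FICC-Seq HEK293 replicate 1. Without that library the difference was -6.64 points (exact permutation test, unadjusted p = 0.0125). The FICC-Seq libraries left then had no rRNA count among 1, 8, 3 and 15 mitochondrial counts. Shares of 0 from so few counts do not show less rRNA: 0 of 26 in FICC-Seq HAP1 allows up to 13.2% by the exact interval. Without FICC-Seq HEK293 replicate 2 instead, the difference was 5.86 points (exact permutation test, unadjusted p = 0.2625). In miCLIP, rRNA shares of 16.7% and 13.04% lay above the iCLIP HEK293 range of 5.88% to 7.94% (difference 7.63 points, exact permutation test, p = 0.1, the smallest possible, adjusted p = 0.214). The miCLIP tRNA share differed from that of iCLIP HEK293 by 10.55 points (p = 0.4, adjusted p = 0.545) and the mRNA share by -9.60 points (p = 0.2, adjusted p = 0.333), both by the exact permutation test.

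MT-TL1, the tRNA for leucine read by UUR codons (ENSG00000209082, chrM:3230-3304, plus), was the most counted mitochondrial gene in all 3 methods. It held 112 counts at 23 positions and was counted in 13 of 14 libraries. Its counts were 14, 15 and 21 in iCLIP HEK293, 11, 11 and 13 in iCLIP HAP1, 3 and 10 in miCLIP, 2, 1 and 0 in FICC-Seq HEK293, and 5, 2 and 4 in FICC-Seq HAP1. Scaled to depth, this was 158 ± 80.2 counts per 100000 in iCLIP (n = 6), 7.89 ± 5.59 in FICC-Seq (n = 6) and 8.62 ± 1.32 in miCLIP (n = 2). Every iCLIP library, from 80.3 upwards, lay above every FICC-Seq and miCLIP library, of which the highest had 16.8.

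Within MT-TL1, base 10 led in every experiment except FICC-Seq HAP1. This base, a G at the start of the D-arm, held 56 counts over 10 libraries and was the highest mitochondrial position of the series. It had 8, 6 and 17 counts in iCLIP HEK293, 6, 4 and 9 in iCLIP HAP1, 1 and 3 in miCLIP, and 1, 1 and 0 in FICC-Seq HEK293. It had none in FICC-Seq HAP1. In that experiment 9 of 11 MT-TL1 counts (81.8%, exact 95% interval 48.2 to 97.7) instead lay on bases 36 and 37, as 3, 2 and 4 by library. In iCLIP HAP1 the same bases held 6 of 35 (17.1%, 6.56 to 33.6) while base 10 held 19 of 35 (54.3%, 36.6 to 71.2). In iCLIP HEK293 they held 2 of 50, both in replicate 2. That library shares positions with iCLIP HAP1 replicate 2, in which these bases held 3 of 11, so the 2 counts are not independent of HAP1. In miCLIP they held 0 of 13, where a true share of up to 24.7% would still be within the exact interval. The gene's anticodon occupies bases 36 to 38, so these 9 FICC-Seq HAP1 counts lay on it as annotated. In the older coordinates the 7 counts of base 37 move to base 36, a T and the start of the anticodon, and the 2 of base 36 move to base 35, just before it. The remaining 2 counts of the experiment lay in the T-loop. This contrast was seen in the data and was not tested.

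The T-loop base that would carry m5U54, the 20th base from the 3′ end, is base 56 in MT-TL1 and a T. Base 56 held 3 counts, of which 2 were in FICC-Seq HAP1 replicate 1 and 1 in miCLIP replicate 2. In iCLIP it held 0 of the 85 MT-TL1 counts. In the older coordinates the 3 counts move to base 55, a G. For catalytic crosslinks, the paper predicts that the methylated base more often lies 1 base after the counted site. That would be the base after this T as annotated, and the T itself in the older coordinates. Position 54 was taken in every gene as the 20th base from the 3′ end, whatever the length of its T-arm. The paper describes mitochondrial tRNAs as structurally unusual, so in some genes this base may not be the true position 54. Read in this way, a T stands there in 6 of the 22 tRNA genes as annotated. Over all tRNAs, position 54 and the base before it held 3 of 20 tRNA counts in FICC-Seq (15.0%, exact 95% interval 3.21 to 37.9), 3 of 44 in miCLIP and 0 of 147 in iCLIP, which allows a share of up to 2.48% by the exact interval. Of these counts, 2 in FICC-Seq and 1 in miCLIP lay in MT-TL1. The others lay in tRNAs without T at that 20th base, and the T-arms of these tRNAs were not folded. They were 1 FICC-Seq count in MT-TP, which has G there, and 2 miCLIP counts in MT-TI, which has C. In the older coordinates position 54 and the base before it held 2 of 20, 1 of 44 and 0 of 145. The FICC-Seq and miCLIP counts among these were all in MT-TL1.

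MT-TY, the tyrosine tRNA (ENSG00000210144, chrM:5826-5891, minus), came next with 37 counts in 9 libraries. Base 32 alone held 25 of them. The counts at base 32 were 5, 2 and 3 in iCLIP HEK293, 1, 3 and 2 in iCLIP HAP1, and 1 and 5 in miCLIP, and of the FICC-Seq libraries only HAP1 replicate 3 had any, with 3. It was the highest position of miCLIP. Base 32 is the last base of the anticodon as annotated and, in the older coordinates, the base just after it, which is position 37 in the usual numbering.

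Positions at or near the anticodon were also counted in MT-TF and MT-TP. In MT-TF, the phenylalanine tRNA, base 40 held 8 counts in 6 libraries and lies 3 bases after the anticodon as annotated. In the older coordinates it is an A directly after the anticodon. The 30 bases after this position also occur elsewhere in the genome. In MT-TP, the proline tRNA on minus, base 34 held 3 counts in miCLIP replicate 2 and 1 in iCLIP HEK293 replicate 1. Base 45 of the same tRNA, which lies 11 bases after the anticodon as annotated, also held 4 counts, in 3 libraries. Base 34 is the last base of the anticodon as annotated and a G directly after it in the older coordinates. Base 10 of MT-TL1 becomes base 9 in that reading, also a G. As background, positions 9 and 37 of mitochondrial tRNAs carry modified purines, among them methylated and isopentenylated forms, several of which are known to halt reverse transcriptase. What gave rise to the counts at these bases was not tested. In MT-TG, the glycine tRNA, base 30 held 3 counts, all in miCLIP replicate 2, and base 47 of MT-TL1 likewise had 3 there and none elsewhere. Neither position recurred in a second library.

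tRNAs with no count had less sequence that is unique in the genome than those with counts. Of the 22 tRNAs, 13 had counts and 9 had none: MT-TV, MT-TQ, MT-TW, MT-TA, MT-TN, MT-TC, MT-TS1, MT-TD and MT-TK. The files hold only uniquely mapping reads, and copies of mitochondrial DNA in the nuclear genome remove reads that match both. Among the 9 tRNAs without counts, the share of bases followed by 30 bases found nowhere else in the genome was 0 to 44.1% (median 4.41%), with 4 genes at 0. Among the 13 with counts it was 30.9% to 100% (median 63.4%), and MT-TL1 stood at 100%. MT-TS1, the serine tRNA for UCN codons, which has T at position 54, was at 0 and had no count in any library. The part of unique mapping in the order of the tRNAs was not tested. Over the whole chromosome 61.1% of the positions of both strands had unique following sequence, and 39 of the 455 counts lay at positions that did not.

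The rRNAs were counted at a similar low level. MT-RNR1, the RNA of the small mitochondrial ribosomal subunit (chrM:648-1601, plus), had 16 counts, of which 5 were in iCLIP HEK293, 7 in iCLIP HAP1, 4 in miCLIP and 0 in FICC-Seq. MT-RNR2, that of the large subunit (chrM:1671-3229, plus), had 17 counts, with 6, 6, 4 and 1 in the same order. By library no rRNA had more than 4 counts. Of the positions, 12 in MT-RNR1 and 15 in MT-RNR2 were counted.

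Among the mRNAs, MT-ND5, a subunit of respiratory complex I, led, and mainly in HAP1 iCLIP. The gene (chrM:12337-14148, plus) had 16, 3 and 3 counts in iCLIP HAP1, 1, 1 and 3 in iCLIP HEK293, 2 in FICC-Seq HAP1 replicate 1 and none in miCLIP. MT-ND6 (chrM:14149-14673), another complex I gene and the only mRNA gene of the minus strand, had 8, 2 and 1 in iCLIP HAP1 and 1 in all other libraries together. MT-ND4, also of complex I (chrM:10760-12137, plus), had 7, 0 and 3 in iCLIP HAP1, against 3 in iCLIP HEK293, 1 in FICC-Seq HAP1 and 0 in miCLIP. For these 3 genes, replicate 1 of iCLIP HAP1 held most of the counts of its group. MT-CO1, a subunit of cytochrome c oxidase (chrM:5904-7445, plus), was spread more evenly, with 5, 5 and 1 in iCLIP HAP1, 4 in iCLIP HEK293, 2 in FICC-Seq HAP1 and 1 in miCLIP. The 13 mRNA genes all had counts in iCLIP, 3 of them in FICC-Seq and 3 in miCLIP.

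Counts opposite to an mRNA gene were nearly as frequent as counts on its strand in iCLIP. iCLIP HAP1 had 76 counts on the gene strand and 57 opposite, by library 44 and 33, 15 and 12, and 17 and 12. iCLIP HEK293 had 27 and 19. In miCLIP there were 3 and 2, and in FICC-Seq 5 and 4. MT-ND5, the longest of the mRNA genes at 1812 nt, had the most here too, with 21 opposite counts in iCLIP. MT-ND3, at 346 nt, had 8. Opposite to the tRNAs iCLIP had 12 counts against 147 on their strand, and the rRNA genes had none. In FICC-Seq HAP1 replicate 3, 3 counts fell on 1 minus-strand position opposite MT-ND4L, the highest FICC-Seq position outside a tRNA.

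The share of mitochondrial counts on minus was 35.8% of pooled counts in iCLIP (exact 95% interval 30.9 to 40.9), 29.3% in miCLIP (18.1 to 42.7) and 22.6% in FICC-Seq (9.59 to 41.1). Over libraries, FICC-Seq differed from iCLIP by -26.09 percentage points (exact permutation test, p = 0.035, adjusted p = 0.105). All minus-strand counts of FICC-Seq, 7 in number, came from HAP1 replicate 3, and the other FICC-Seq libraries had none. miCLIP differed from iCLIP HEK293 by -4.45 points (exact permutation test, p = 0.5, adjusted p = 0.625).

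A T followed the counted base in 23.5% of all mitochondrial counts (107 of 455), whereas T makes up 24.7% of the plus strand and 30.9% of the minus strand. By method it was 22.6% in FICC-Seq (7 of 31), 24.0% in iCLIP (88 of 366) and 20.7% in miCLIP (12 of 58). The difference between FICC-Seq and iCLIP was -1.19 points (exact permutation test, p = 0.92, adjusted p = 0.955) and that between miCLIP and iCLIP in HEK293 was 1.27 points (p = 0.8, adjusted p = 0.923, same test). These values depend on the base read from the coordinates: in the older coordinates the differences were 11.08 points (exact permutation test, p = 0.32) and 21.56 points (p = 0.1).

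Most mitochondrial positions were counted in 1 library. Of the 244, 161 had a single count over the whole series. By library, 200 were counted in 1, 44 in at least 2 and 10 in at least 3, and all 10 lay in tRNAs. The same numbers were not taken for other chromosomes, so they are not read as particular to the mitochondrial genome. In iCLIP 39 of 202 positions were counted in 2 or more libraries. Of these, 22 recurred only in the HEK293 and HAP1 libraries of a single replicate number, and 16 recurred within a cell line. In FICC-Seq 2 of 15 positions recurred and in miCLIP 3 of 41. The mean number of counts per counted position was 1.42 on the mitochondrial genome and 1.88 elsewhere outside the listed tRNA regions, lower in 10 of 13 libraries (difference -0.46, exact sign-flip permutation test, p = 0.0117, adjusted p = 0.0879). The difference missed an unadjusted p of 0.05 without the replicate 1 libraries (-0.29, exact permutation test, p = 0.117) and without the replicate 2 libraries (-0.45, p = 0.109), and against all positions of the other chromosomes, tRNA regions included, it was -3.03 (p = 0.000244). The 3 libraries in which the mitochondrial mean was higher were all iCLIP. They were HEK293 replicate 3 (1.5 against 1.23), HAP1 replicate 1 (1.49 against 1.35) and HAP1 replicate 3 (1.41 against 1.396). It was lower in iCLIP HEK293 replicates 1 (1.42 against 1.73) and 2 (1.26 against 1.35) and HAP1 replicate 2 (1.302 against 1.414). All FICC-Seq and miCLIP means were lower, but those of FICC-Seq rested on 4, 1, 5, 2 and 6 mitochondrial positions. iCLIP thus went both ways, and the methods were not tested separately.

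The stretch of nuclear DNA with the most exact 30-base mitochondrial matches, at chr1:564464-570304, held 11 counts over all libraries, of which 10 were in iCLIP and 1 in FICC-Seq. A stretch at chr5:134259093-134264157 held 19, of which 10 were in iCLIP HAP1 replicate 1. Beside 366 mitochondrial counts in iCLIP, these nuclear copies had 10 and 17.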

How the data were processed

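The authors deposited, for each of 14 libraries, cDNA counts per position, with a sign for the strand and no scaling for depth. Their iCount runs collapsed reads with the same random barcode and aligned the rest to hg19 by bowtie; only reads with a single place in the genome were retained. Counted positions on chrM were read here as absolute values and assigned to genes of GENCODE mapped to GRCh37, in the order tRNA, rRNA, mRNA, opposite strand, non-coding. The members, gene lists and tests were chosen with earlier results of these data known. Genes with at least 10 counts pooled in an experiment, both rRNAs, MT-TL1, MT-TS1 and the 3 highest positions of each method are named, and other genes were chosen after their values were seen.

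Libraries held 7002 to 104605 counts. Intervals are exact (Clopper-Pearson) 95% binomial intervals and, like the upper limit of 3 counts for a count of 0, cover counting error only. Differences of library percentages were tested with 2-sided exact permutation tests within cell line or method, after tests on simulated data, and p-values of 15 tests were adjusted by Benjamini-Hochberg. Replicate pairs of a group all differed by more than sampling noise over positions with at least 10 counts, and 2 FICC-Seq HEK293 libraries that share a barcode label were kept as separate samples. Alternatives covered the weight of positions, unique sequence, coordinates, gene bounds, denominators and left-out libraries. Tests were run with scipy 1.17.1 and numpy 2.4.6, sequence was read with pysam 0.24.0, and tables were made with pandas 2.3.3 under Python 3.11.15.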

Additional observations from a re-analysis of the deposited data

How the results depend on the processing

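Of 240 recomputed tests, 175 kept their direction and their side of an unadjusted p of 0.05, 40 fell short of it, 3 passed it and 22 turned direction. Counts pooled over an experiment gave 10 values without a test, all within 1 SD of the main value, of which 3 had the opposite sign. The lower mitochondrial share of FICC-Seq than of iCLIP kept both in all alternatives run, from -0.69 to -0.54 percentage points with 1 library left out. With the replicate block, in which labels were swapped only within a cell line and replicate number, it was -0.63 (p = 0.0312, exact permutation test), while the tRNA share (24.35, p = 0.125), the mRNA share (-18.29, p = 0.0625) and the minus-strand share (-25.03, p = 0.125) of FICC-Seq minus iCLIP fell short. The block changed no other call. Deviations of same-numbered libraries correlated at -0.06 to 0.18 between FICC-Seq and iCLIP, where 7 of 12 libraries correlated best with their own number, and no pairing was assumed. Between cell lines they correlated at 0.06 to 0.46, against -0.40 to 0.20 for different numbers, and 10 of 12 correlated best with their own number, beside the positions that iCLIP replicates 2 and 3 share.

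Without 1 library, FICC-Seq minus iCLIP ran from 13.07 to 38.07 points for the tRNA share (lowest without FICC-Seq HEK293 replicate 2), -6.64 to 5.86 for rRNA (turned by the same library or iCLIP HAP1 replicate 2, lowest without FICC-Seq HEK293 replicate 1), -22.64 to -13.27 for mRNA, -33.87 to -22.20 for the minus strand and -13.69 to 11.31 for a following T. miCLIP minus iCLIP ran from -0.51 to 21.60 for tRNA (turned without miCLIP replicate 2), -12.42 to 3.52 for the minus strand (turned without miCLIP replicate 1) and -1.44 to 3.99 for a following T. HEK293 minus HAP1 ran from -0.20 to -0.052, and counts per position from -0.61 to -0.29 without 1 replicate number, with the call lost without number 1 or 2.

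With unique following sequence alone, the rRNA share of FICC-Seq minus iCLIP was 0.77, the minus-strand share -25.58 (exact permutation test, p = 0.055) and a following T in miCLIP minus iCLIP -0.17. Without single-count positions the minus-strand share of miCLIP minus iCLIP was 21.48. A following T gave 8.48 (FICC-Seq, 1-nt shift), -1.19 (miCLIP, 2-nt shift) and -4.03 (miCLIP, positions counted once). Leaving out positions that only the iCLIP libraries of a barcode share gave, for FICC-Seq minus iCLIP, 23.12 for tRNA (exact permutation test, p = 0.055), 0.16 for rRNA and 3.89 for a following T. Without iCLIP HEK293 replicates 2 and 3, which have barcode partners in HAP1, HEK293 minus HAP1 was -0.24 (p = 0.025), and FICC-Seq minus iCLIP was 24.60 for tRNA (p = 0.167), -16.82 for mRNA (p = 0.05), -28.21 for the minus strand (p = 0.0667) and 1.47 for a following T. Without the partners in HAP1 it was 30.44 for tRNA (p = 0.1), -21.60 for mRNA (p = 0.075) and -27.79 for the minus strand (p = 0.1), all by the exact permutation test. These alternatives, the older coordinates (11.08 for a following T in FICC-Seq) and leaving out MT-TL1 were chosen after seeing the data. Without MT-TL1 the tRNA share was -16.67 for FICC-Seq, and a following T was 10.46 for FICC-Seq and -4.03 for miCLIP. That left FICC-Seq HEK293 replicate 2 with no mitochondrial count. The cause of these shifts was not tested. With 5 mitochondrial counts, FICC-Seq HEK293 gives class shares with wide intervals.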
